A study of Mus musculus with 12 samples.

Results

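The heterogeneous nuclear ribonucleoprotein (hnRNP) genes, the serine- and arginine-rich (SR) protein genes and the genes of the U2 recognition factors were followed in Ba/F3 cells with RNA sequencing. Members were taken by name, as protein-coding mouse genes whose symbol starts with Hnrnp, Srsf, Tra2, U2af, Sf3a or Sf3b in the mm10 gene models of GENCODE. This gave 45 of the 55471 genes in the table, of which 20 are Hnrnp, 11 Srsf, 2 Tra2, 3 U2af, 3 Sf3a and 6 Sf3b genes. With their 1143 annotated exons, of 447909 in all, they were measured in 12 libraries. Ba/F3 is a mouse pro-B cell line that lives and divides only with interleukin-3 (IL-3) unless an oncogene takes over that signal. The first group, of 4 lines, expressed SFPQ-ABL1 and grew without IL-3. A second group of 4 lines expressed BCR-ABL1 and also grew without IL-3. The 4 MSCV lines held the empty retroviral vector and were kept in 0.5 ng/ml of murine IL-3, so fusion and cytokine cannot be told apart in either comparison with MSCV. The labels call the lines of a group biologically independent and state no further genetic change. Both fusions carry the ABL1 tyrosine kinase, and SFPQ is itself a nuclear protein of splicing and paraspeckles.

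Splicing removes introns at sites that are first marked by the U1 snRNP and the U2 auxiliary factor (U2AF) and then by the U2 snRNP, whose SF3A and SF3B complexes grip the branch point. SR proteins and the related Tra2 proteins bind exonic enhancers and favour inclusion of an exon, while many hnRNP proteins bind silencers and favour skipping, and hnRNP proteins also package and export RNA. Many of these genes limit their own level through a poison exon, a stretch that is spliced in when the protein is abundant and brings a premature stop, so that the transcript is degraded by nonsense-mediated decay (NMD). Activity of SR proteins is set by phosphorylation, for which the SRPK and CLK kinases are best known.

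Library totals ran from 59355018 to 80616227 gene counts and from 10061439 to 15560875 exon counts. The exon counts were 18% of the gene counts, and the sources used here do not describe which reads the exon table keeps. Counts on an exon of Abl1 carried by both fusions set 2 lines apart: SFPQ-ABL1 line 2 had 4.36 CPM (counts scaled to library size), below the 17.8 to 26.8 of the other SFPQ-ABL1 lines, and BCR-ABL1 line 4 had 20.8, above the 9.23 to 11.8 of lines 1 to 3. MSCV lines had at most 0.0529. Of 12 early B cell markers 4 passed the count filter, with Cd79a and Cd79b carrying nearly all of the signal and Il7r at 0 in every line. Their summed level was 85.2 to 98.8 CPM with SFPQ-ABL1, 49.4 to 72.1 with BCR-ABL1 and 131 to 152 with MSCV. Granulocyte and monocyte markers summed to 548 to 815, 213 to 380 and 444 to 1120 CPM in those groups, with Ctsg and Ly6g at 0 outside BCR-ABL1 lines, and erythroid and megakaryocyte markers to 879 to 2000, 901 to 1750 and 1280 to 2050. Mast cell and basophil markers, of which 2 of 6 passed the filter, summed to 8.14 to 12.8, 7.12 to 52.7 and 11.6 to 14.3 CPM. BCR-ABL1 line 2 stood apart in that list, with 42.2 CPM of Cpa3 against 0.876 to 4.75 in the other BCR-ABL1 lines, and Kit was at 0 in every BCR-ABL1 and MSCV line. T and NK cell markers, also 2 of 6, summed to 2.42 to 4.78, 0.334 to 2.3 and 3.62 to 16.5 CPM with Cd8a and Ncr1 at 0 throughout, and fibroblast and stromal markers stayed under 1 CPM in every line. Without BCR-ABL1 line 2 the members called were 5 higher and 0 lower in SFPQ-ABL1 against BCR-ABL1, and 2 higher and 1 lower in BCR-ABL1 against MSCV. The part of these shifts in the results on splicing factor genes was not tested. In bulk RNA, fewer cells of a type and less RNA per cell cannot be told apart.

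In the annotation, 28 exons of 18 members met the rule for a poison exon: internal in an NMD transcript and outside the coding sequence of every protein-coding transcript of the gene. Of these, 14 hold the premature stop inside and 14 do not, and 8 of the 18 genes are Srsf or Tra2 genes. Outside coding sequence, 7 of the 28 overlap an exon of a protein-coding transcript, so reads on them need not come from an NMD transcript. Lengths ran from 40 to 1711 bases. The exons of Tra2b, Tra2a, Srsf3 and Srsf4 are shown from their first base to the premature stop, which is in capitals, because the smallest p among poison exons was in Tra2b, because Tra2a is its paralog, and because Srsf3 and Srsf4 hold a stop and had an unadjusted p under 0.05 in a comparison, so that both were chosen after their values were seen. They were read from the GENCODE transcripts on mm10, 5′ to 3′ on the transcript strand. Tra2b lies at chr16:22258986-22259261 on the minus strand (276 bases), Tra2a at chr6:49252803-49253108 on the minus strand (306 bases), Srsf3 at chr17:29039454-29039909 on the plus strand (456 bases) and Srsf4 at chr4:131884276-131884482 on the plus strand (207 bases).
Tra2b: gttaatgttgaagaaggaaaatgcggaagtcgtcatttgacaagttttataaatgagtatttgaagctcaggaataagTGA
Tra2a: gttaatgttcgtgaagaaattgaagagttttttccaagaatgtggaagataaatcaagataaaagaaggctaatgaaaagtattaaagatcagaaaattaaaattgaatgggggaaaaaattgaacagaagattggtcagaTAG
Srsf3: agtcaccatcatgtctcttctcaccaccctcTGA
Srsf4: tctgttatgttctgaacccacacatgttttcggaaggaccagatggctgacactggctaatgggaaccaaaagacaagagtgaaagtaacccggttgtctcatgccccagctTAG

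The stop begins at base 79 of the Tra2b exon, 142 of Tra2a, 32 of Srsf3 and 113 of Srsf4, counted from the first base of the exon. The Tra2b and Tra2a exons begin with the same 9 bases. Tra2 proteins are known to bind GAA-rich RNA. Searched on the transcript strand with overlapping matches counted, the motif GAAGAA occurred 3 times in the whole 276-base Tra2b exon and 4 times in the whole Tra2a exon, and 0 times in those of Srsf3 and Srsf4. Of 5492 internal exons of protein-coding genes with 248 to 304 bases, 21.8% held it at least once and 1.31% held it 3 times or more.

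Levels per length differed widely between members and were not ranked against other genes. Per kilobase of exon, Hnrnpa2b1, whose protein binds and sorts RNA, led all members with 198.8 CPM as the mean of 12 lines, followed among hnRNP genes by Hnrnpab with 125.6. Srsf5 had 107.2 and Srsf2 92.4 CPM per kilobase, the highest of the SR genes. Among the U2 snRNP genes Sf3b6, which encodes the branch point protein p14, had 50.15 and Sf3b1 49.46, which lie close together. U2af2, the large U2AF subunit that reads the polypyrimidine tract, had 56.11 CPM per kilobase, and U2af1, the small subunit that reads the AG at the end of the intron, had 8.06. Tra2a had 22.38 and Tra2b 18.06.

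Low members were few. Srsf12 held 12 gene counts over all 12 lines and was the member left out by the count filter, so 44 of 45 were tested. U2af1l4 held 130 gene counts in all, and its value is uncertain because its exons carry far more counts than the gene. Reads may also be shared with close copies, since the treatment of reads with several matches is not given in the sources used here. That touches Hnrnph1 and Hnrnph2, which are close paralogs, and Hnrnpa1, which has processed pseudogenes. The 45 genes together took 1.2 to 1.46% of all gene counts with SFPQ-ABL1, 1.07 to 1.16% with BCR-ABL1 and 1.08 to 1.17% with MSCV. SFPQ-ABL1 lines thus lay above all others in this share of raw counts. The Hnrnp genes alone took 0.711 to 0.873%, 0.612 to 0.646% and 0.635 to 0.702% in the same order, without overlap between SFPQ-ABL1 lines and the rest. For the Srsf genes the ranges of 0.261 to 0.33%, 0.235 to 0.289% and 0.236 to 0.281% overlapped. These shares lack the TMM scaling factors that the gene levels carry, such as 0.983 for MSCV line 2 and 1.031 for SFPQ-ABL1 line 4. With those factors MSCV line 2 would lie above SFPQ-ABL1 line 4, both for all 45 genes and for the Hnrnp genes. The separation of SFPQ-ABL1 from MSCV lines thus holds for raw counts only.

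**Figure D1:**
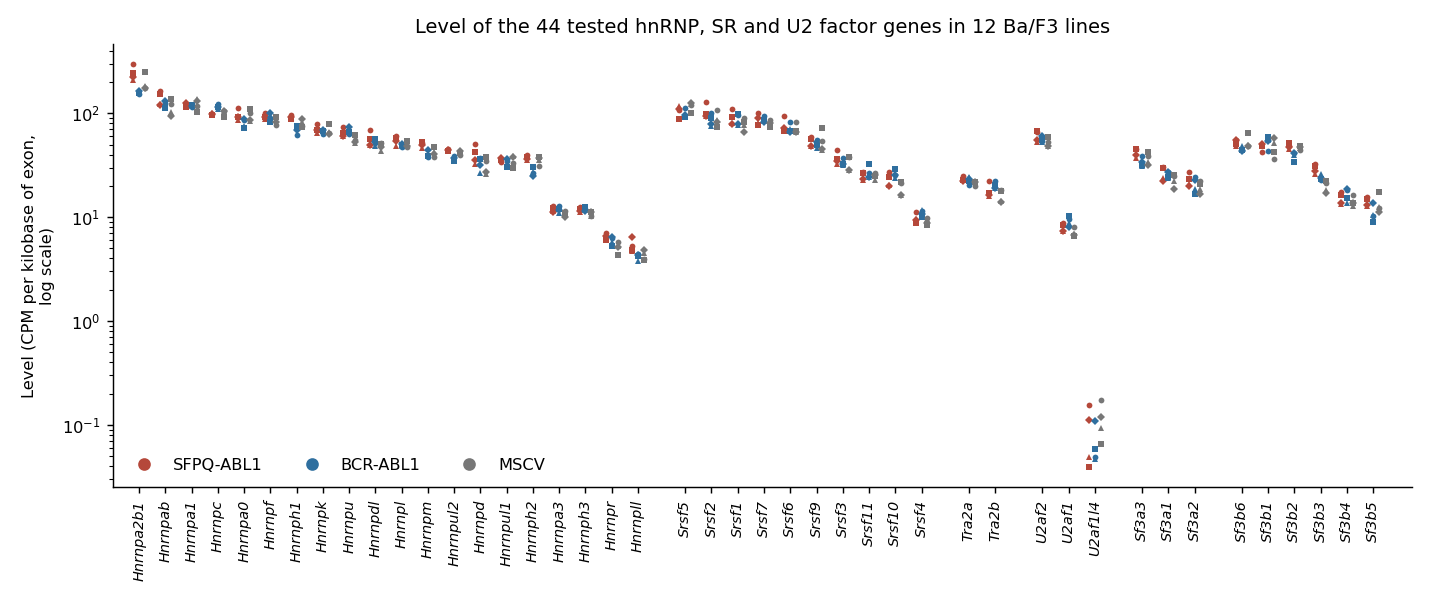
Level of each tested member in CPM per kilobase of exon (log axis), by family, with 1 point per line (circle, square, diamond and triangle for lines 1 to 4). Hnrnpa2b1 is highest at a mean of 198.8, and U2af1l4 lies far below the rest with 130 counts in all.

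SFPQ-ABL1 was first set against BCR-ABL1, where both groups grew without IL-3. Of 44 members 7 rose and 1 fell (18.2%), against 26% of all 17197 genes tested (13.2% higher and 12.8% lower). Calls rest on the quasi-likelihood test of edgeR, with p-values adjusted over all genes by the method of Benjamini and Hochberg. The calls were 6 higher and 1 lower of 20 hnRNP genes (35%, beside the 26% of all genes) and 1 of 6 Sf3b genes (16.7%). Of 10 Srsf, 2 Tra2, 3 U2af and 3 Sf3a genes 0 passed. DESeq2 called 10 members, adding Sf3a3 and Sf3b3. Shares of all genes called are from edgeR, so this count and the DESeq2 counts below have none beside them. At an unadjusted p under 0.05 lay 11 members, against 38.6% of all genes, and of the genes in the 4 families without a call Sf3a3 alone was among them. Sizes were small, with 43 of 44 members within 1.5-fold against 75.3% of all genes. The median log2 fold change was 0.09 over members and 0.01 over all genes.

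Hnrnpa2b1 (chr6:51460932-51469894, minus strand of mm10) had 1959, 1593, 1481 and 1381 CPM in SFPQ-ABL1 lines 1 to 4, against 1012, 1034, 1075 and 1032 in BCR-ABL1 lines. All SFPQ-ABL1 lines were higher than all BCR-ABL1 lines, and line 1 was highest. The gene rose 1.54-fold (0.63 ± 0.13 SE on the log2 scale, edgeR adjusted p = 0.00414), the only member past 1.5-fold here. MSCV lines had 1149, 1634, 1156 and 1204 CPM, so MSCV line 2 lay within the SFPQ-ABL1 range and the other MSCV lines lay between both fusions.

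Hnrnph1 and Hnrnph2 encode related proteins that bind G-rich RNA. Hnrnph2 had 175, 167, 159 and 154.5 CPM in SFPQ-ABL1 lines, against 115, 133, 110.0 and 118 in BCR-ABL1 lines, with no overlap. The rise was 1.38-fold (0.46 ± 0.09 SE on the log2 scale, edgeR adjusted p = 0.00243). Hnrnph1 had 557, 509.8, 538 and 527 CPM in SFPQ-ABL1 lines, against 361, 437, 403 and 425 in BCR-ABL1 lines. This was a 1.31-fold rise (0.39 ± 0.09 SE on the log2 scale, edgeR adjusted p = 0.00608). Both genes moved the same way and by similar steps, and shared reads between the paralogs were not tested.

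Among the other hnRNP genes called, Hnrnpll, a splicing repressor known from the Cd45 gene in lymphocytes, had 61.8, 56.7, 76.0 and 55.6 CPM in SFPQ-ABL1 lines, against 51.6, 49.4, 50.2 and 44.5 in BCR-ABL1 lines. Line 3 stood highest, and the gene rose 1.28-fold (0.35 ± 0.11 SE on the log2 scale, edgeR adjusted p = 0.0323). Hnrnpm averaged 397.5 ± 22.6 CPM with SFPQ-ABL1 and 319 ± 21.8 with BCR-ABL1 (SD, n = 4 each), and Hnrnpul2 314 ± 6.50 and 261 ± 12.3. Their rises were 1.25-fold (edgeR adjusted p = 0.0175) and 1.2-fold (edgeR adjusted p = 0.015), again with no overlap. Hnrnpc, whose protein packages nascent RNA and masks uridine tracts, was the member that fell. It averaged 427 ± 8.49 CPM with SFPQ-ABL1 and 499 ± 24.7 with BCR-ABL1 (SD, n = 4 each), with no overlap and a log2 fold change of -0.23 ± 0.08 SE (adjusted p = 0.0457, edgeR).

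Of the U2 snRNP genes, Sf3b2 rose to 330 ± 21.1 CPM with SFPQ-ABL1, against 267 ± 25.6 with BCR-ABL1 (SD, n = 4 each; 1.23-fold, adjusted p = 0.0228, edgeR). Sf3b3 and Sf3b6 did not overlap between the groups without passing the test (adjusted p = 0.0569 and 0.137, edgeR). Groups did not overlap for 10 of 44 members and 27.9% of all genes. Calls at this size were not all stable. Hnrnpc was called in 1 of the 12 fits without 1 line, and Hnrnpll passed in 7, and without SFPQ-ABL1 line 2 and BCR-ABL1 line 4 the count was 4 higher and 0 lower. Without MSCV line 2, which is in neither group but in the same fit, it was 11 higher and 1 lower. Hnrnpa2b1, Hnrnph1, Hnrnph2, Hnrnpm and Hnrnpul2 passed in all 12 of those fits.

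**Figure D2:**
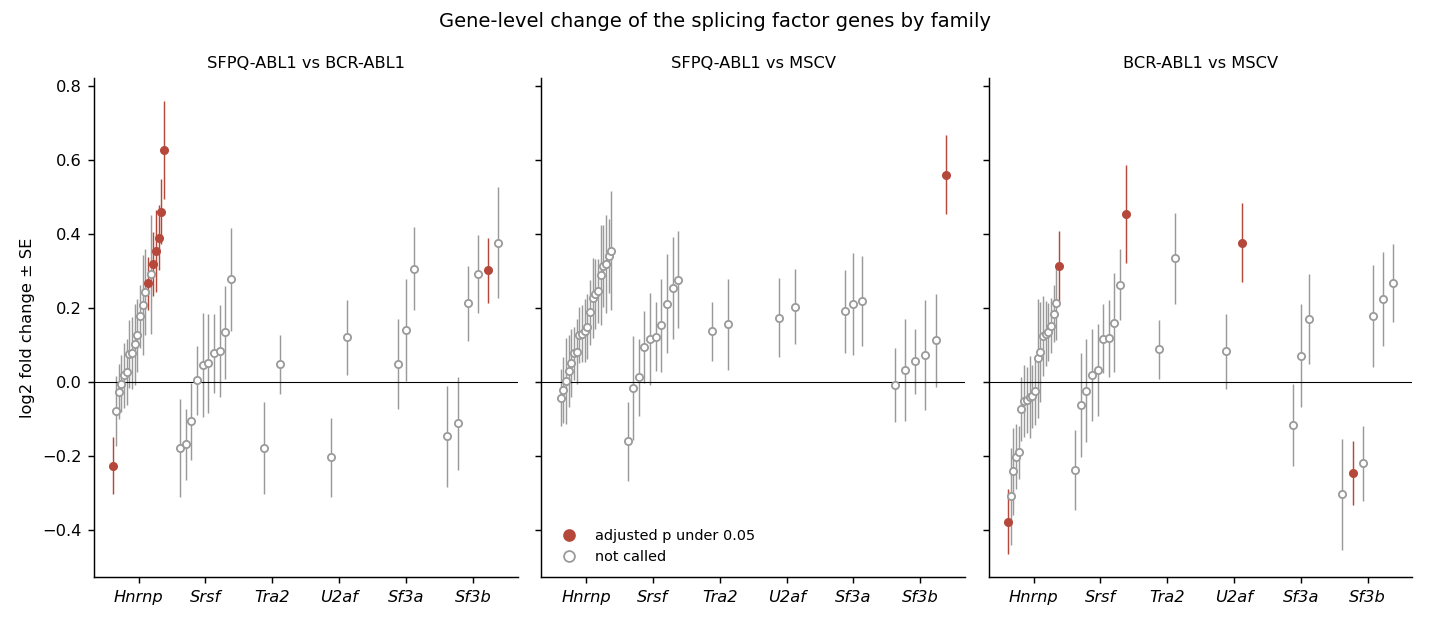
log2 fold change ± SE (y axis) of 43 tested members by family in 3 comparisons, ordered by size within each family. U2af1l4 is left off because of its 130 counts. Filled points passed the test at an adjusted p under 0.05: 8 for SFPQ-ABL1 against BCR-ABL1, 1 for SFPQ-ABL1 against MSCV and 5 for BCR-ABL1 against MSCV.

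Against MSCV, SFPQ-ABL1 lines differed in a single member. Sf3b3 (chr8:110810239-110846787, minus strand of mm10), which encodes a large scaffold subunit of the SF3B complex, had 354, 337, 301 and 285 CPM in SFPQ-ABL1 lines, against 234, 246, 186 and 200.3 in MSCV lines. The groups did not overlap, and lines 1 and 2 were higher than lines 3 and 4 in both. The gene rose 1.48-fold (0.56 ± 0.11 SE on the log2 scale, edgeR adjusted p = 0.0256). This was 1 of 44 members (2.27%), against 1.79% of all genes (0.814% higher and 0.977% lower), with 8 members at an unadjusted p under 0.05, where 18.6% of all genes lay. DESeq2 called Sf3b3 and Hnrnpr. The call was lost without SFPQ-ABL1 line 1 (adjusted p = 0.0824), MSCV line 3 (0.0747) or MSCV line 4 (0.0726) and in a fit of the 8 libraries compared (0.0652).

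Small differences in this comparison leaned upward. The log2 fold change was positive for 38 of 44 members, 18 of 20 Hnrnp genes among them, with a median of 0.14, against -0.0019 over all genes. All 44 lay within 1.5-fold, as did 87.5% of all genes. Hnrnpr had 155, 135, 146 and 140.3 CPM in SFPQ-ABL1 lines, against 129, 96.0, 115 and 116 in MSCV lines, with no overlap, at a log2 fold change of 0.34 ± 0.10 SE (adjusted p = 0.0998, edgeR). Tra2a did not overlap either, at 0.14 ± 0.08 SE (adjusted p = 0.382). In all, 3 members had groups that did not overlap, as had 11.2% of all genes. Hnrnpa2b1 had a log2 fold change of 0.32 ± 0.13 SE (adjusted p = 0.216), with MSCV line 2 inside the SFPQ-ABL1 range.

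BCR-ABL1 against MSCV gave 3 members that rose and 2 that fell. These are 5 of 44 (11.4%), where 32.1% of all genes were called, 15.8% higher and 16.3% lower. At an unadjusted p under 0.05 lay 14 members, against 42.9% of all genes, and DESeq2 called 9. All 44 but U2af1l4 stayed within 1.5-fold, against 71.5% of all genes.

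Srsf10 encodes an SR protein that acts as a splicing repressor once dephosphorylated. It had 180.1, 204, 179 and 168 CPM in BCR-ABL1 lines, against 151, 154, 114 and 115 in MSCV lines. No lines overlapped, and the gene rose 1.37-fold (0.45 ± 0.13 SE on the log2 scale, edgeR adjusted p = 0.0182). U2af1 had 24.8, 26.65, 20.94 and 22.8 CPM in BCR-ABL1 lines, against 20.87, 17.2, 17.3 and 17.9 in MSCV lines, so that the closest lines of both groups all but met. Its rise was 1.3-fold (0.38 ± 0.11 SE on the log2 scale, edgeR adjusted p = 0.0164). Hnrnpu, a scaffold protein of the nuclear matrix, had 738, 771, 861 and 827 CPM in BCR-ABL1 lines, against 637, 717, 614 and 603.5 in MSCV lines, and rose 1.24-fold (0.31 ± 0.09 SE on the log2 scale, edgeR adjusted p = 0.0219).

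The falls were in Hnrnph2 and Sf3b2, which are also among the members higher with SFPQ-ABL1 than with BCR-ABL1. Both comparisons share the BCR-ABL1 lines. Hnrnph2 averaged 119 ± 9.65 CPM with BCR-ABL1 and 155 ± 13.2 with MSCV (SD, n = 4 each), with a log2 fold change of -0.38 ± 0.09 SE (adjusted p = 0.00545, edgeR). SFPQ-ABL1 lines averaged 164 ± 8.88, which lay 0.08 ± 0.09 SE above MSCV on the log2 scale (adjusted p = 0.647). Sf3b2 averaged 267 ± 25.6 CPM with BCR-ABL1 and 317 ± 13.7 with MSCV (SD, n = 4 each), at -0.25 ± 0.09 SE (adjusted p = 0.0467, edgeR). It kept its call in 2 of the 12 fits without 1 line, and Hnrnph2 in all 12.

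Members without a call also parted in this comparison, with 12 of 44 not overlapping against 31.6% of all genes. Tra2b, an activator of exon inclusion, had 206.5, 188, 176 and 177 CPM in BCR-ABL1 lines, against 167, 164, 130.3 and 132 in MSCV lines. Its log2 fold change of 0.33 ± 0.12 SE had an adjusted p of 0.0546 in edgeR, and it was called by DESeq2 (0.0371), by limma-voom (0.049), with RLE factors (0.0496), by the fit of 8 libraries (0.0478) and in 3 of the 12 fits without 1 line. Tra2b was not called without normalization factors (edgeR adjusted p = 0.0789), without a count filter (0.105) or against a 1.2-fold change (0.305). Nor was it called without both SFPQ-ABL1 line 2 and BCR-ABL1 line 4 (0.0799). SFPQ-ABL1 lines had 205, 159, 150.5 and 146 CPM of Tra2b, a spread that overlaps both other groups. Which members were called in BCR-ABL1 against MSCV varied with single lines. U2af1 was the only rise without MSCV line 3 or MSCV line 4, 5 members rose without SFPQ-ABL1 line 1 or MSCV line 2, and 6 without MSCV line 1. Leaving out SFPQ-ABL1 line 2 and BCR-ABL1 line 4 together gave 2 members higher and 1 lower.

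**Figure D3:**
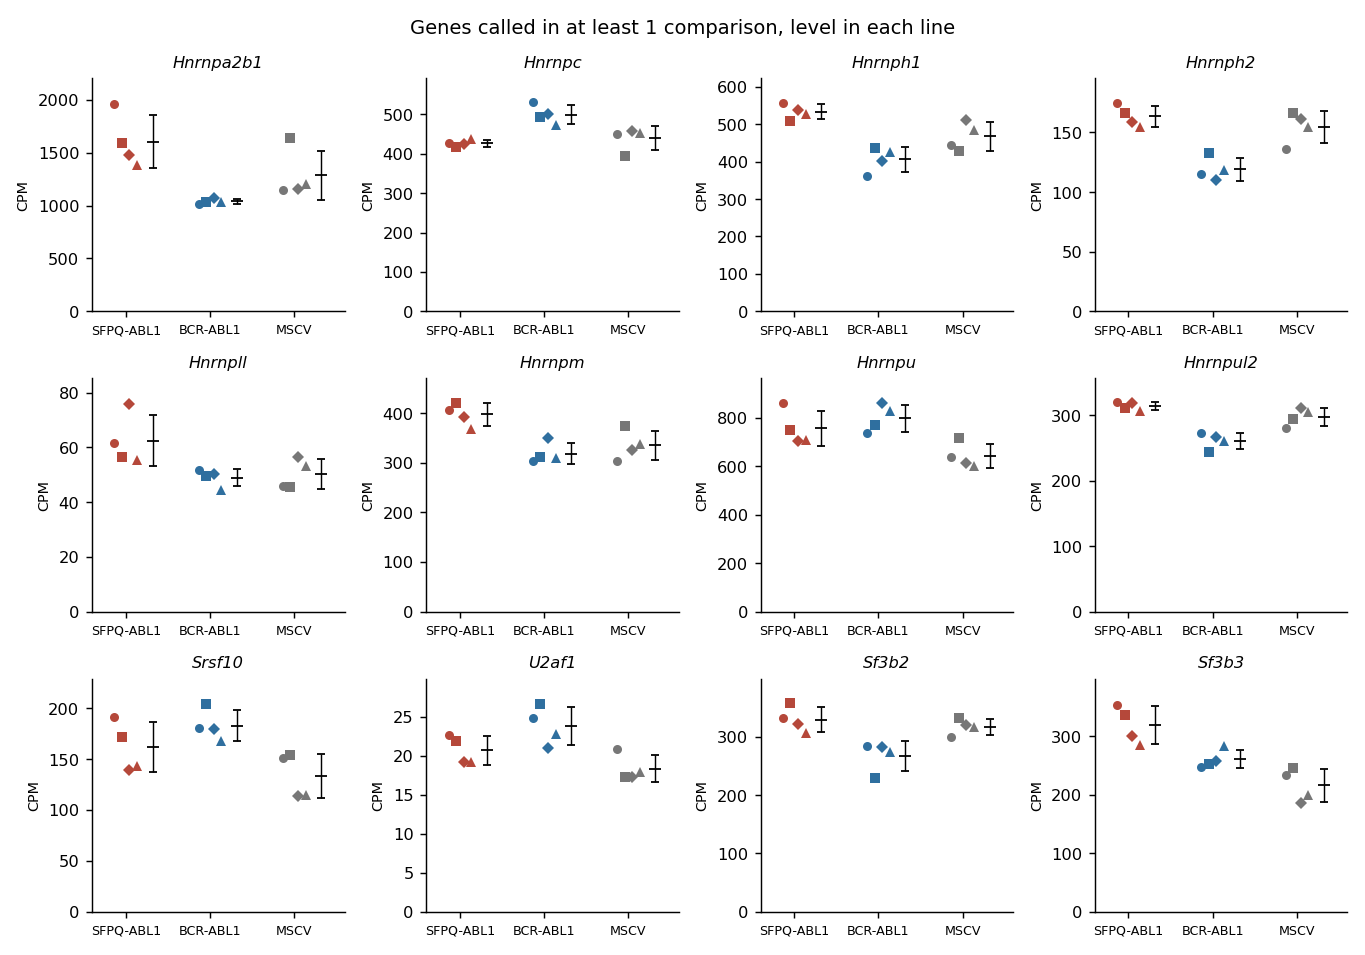
Level (CPM, y axis from 0) of the 12 members called in at least 1 comparison, in SFPQ-ABL1, BCR-ABL1 and MSCV lines (circle, square, diamond and triangle for lines 1 to 4), with the mean and SD of 4 lines in black. The SFPQ-ABL1 lines of Hnrnpa2b1 sit at 1381 to 1959, above the BCR-ABL1 lines at 1012 to 1075, and MSCV line 2 alone reaches 1634.

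Exon usage, the count of an exon relative to the other exons of its gene, was tested for 42 members and 950 of their exons. By the Simes p of each gene 0 of 42 members were called for SFPQ-ABL1 against BCR-ABL1, 0 against MSCV and 0 for BCR-ABL1 against MSCV (edgeR diffSpliceDGE). Of all 9875 genes tested 0.132%, 0.0608% and 0.192% were called. At an unadjusted p under 0.05 were 3, 1 and 4 members in that order, beside 2.01%, 1.34% and 4.05% of all genes. limma diffSplice called 0 in each. An F test over the exons of a gene called Tra2b for SFPQ-ABL1 against BCR-ABL1, Hnrnpa2b1 for SFPQ-ABL1 against MSCV, and Srsf4, Srsf10, Tra2b and Hnrnpdl for BCR-ABL1 against MSCV. It called 0.638%, 0.243% and 3.29% of all genes. In the exon table a read on nested exons counts for each of them, so neighbouring values are not independent.

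A single member exon passed, in SFPQ-ABL1 against MSCV, where 0.0173% of 115471 exons did. It is a coding exon of Hnrnpl, a regulator that binds CA repeats, at chr7:28818461-28818532 on the plus strand of mm10, shown 5′ to 3′ with no base marked.
Hnrnpl: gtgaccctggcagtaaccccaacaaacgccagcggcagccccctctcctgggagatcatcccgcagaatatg

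The 72-base exon had 129, 236, 85 and 44 counts in SFPQ-ABL1 lines 1 to 4, against 57, 46, 48 and 54 in MSCV lines. BCR-ABL1 lines had 61, 47, 37 and 43. SFPQ-ABL1 line 4 had fewer counts than any MSCV line, and line 2 stood far above the others. As a share of the exon counts of the gene, line 4 had 0.833% against 0.51 to 0.82% in MSCV lines, so the groups all but met. Usage was higher by 1.15 on the log2 scale (adjusted p = 0.0432, edgeR). The call was lost in 8 of 12 fits without 1 line, at 0.69 with an adjusted p of 1 without SFPQ-ABL1 line 2, and limma gave 0.87 with an adjusted p of 1. The mean share was 1.43 ± 0.805% with SFPQ-ABL1, 0.756 ± 0.104% with BCR-ABL1 and 0.695 ± 0.138% with MSCV (SD, n = 4 each). The log2 fold change of the whole gene against MSCV was 0.14 ± 0.08 SE (adjusted p = 0.405).

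Of the 28 poison exons 21, in 13 genes, had enough counts for the test, and 0 were called in any of the 3 comparisons (edgeR and limma), where 0.0156%, 0.0173% and 0.0468% of all exons were called for SFPQ-ABL1 against BCR-ABL1, SFPQ-ABL1 against MSCV and BCR-ABL1 against MSCV. Direction was uneven. In SFPQ-ABL1 against BCR-ABL1 usage was lower for 19 and higher for 2, with a median of -0.38 on the log2 scale over the poison exons and -0.02 over all 950 member exons. At an unadjusted p under 0.05 lay 6 of 21, all lower, against 2% of all exons. In BCR-ABL1 against MSCV 16 were higher and 5 lower, with a median of 0.31, and 5 lay at an unadjusted p under 0.05, all higher, against 3.93% of all exons. For SFPQ-ABL1 against MSCV 8 were higher and 13 lower, with a median of -0.14 and 1 at an unadjusted p under 0.05, against 1.72% of all exons. Medians over all 950 member exons were 0.07 in BCR-ABL1 against MSCV and 0.03 in SFPQ-ABL1 against MSCV. Other member exons also reached an unadjusted p under 0.05. In BCR-ABL1 against MSCV these were 22 of 112 untranslated or other exons (19.6%), 17 of them higher, and 23 of 773 coding exons. The share of low p there was thus not particular to poison exons (23.8%). In SFPQ-ABL1 against BCR-ABL1 they were 7 of 112, 5 of them lower, and 10 of 773. The comparisons share lines, and several of the poison exons are nested. The tally of directions pools exons with and without a stop inside, and some that overlap exons of protein-coding transcripts. Among the latter is the 1711-base exon of Hnrnpa1, with a mean of 46.8% of the exon counts of its gene in SFPQ-ABL1 lines.

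**Figure D4:**
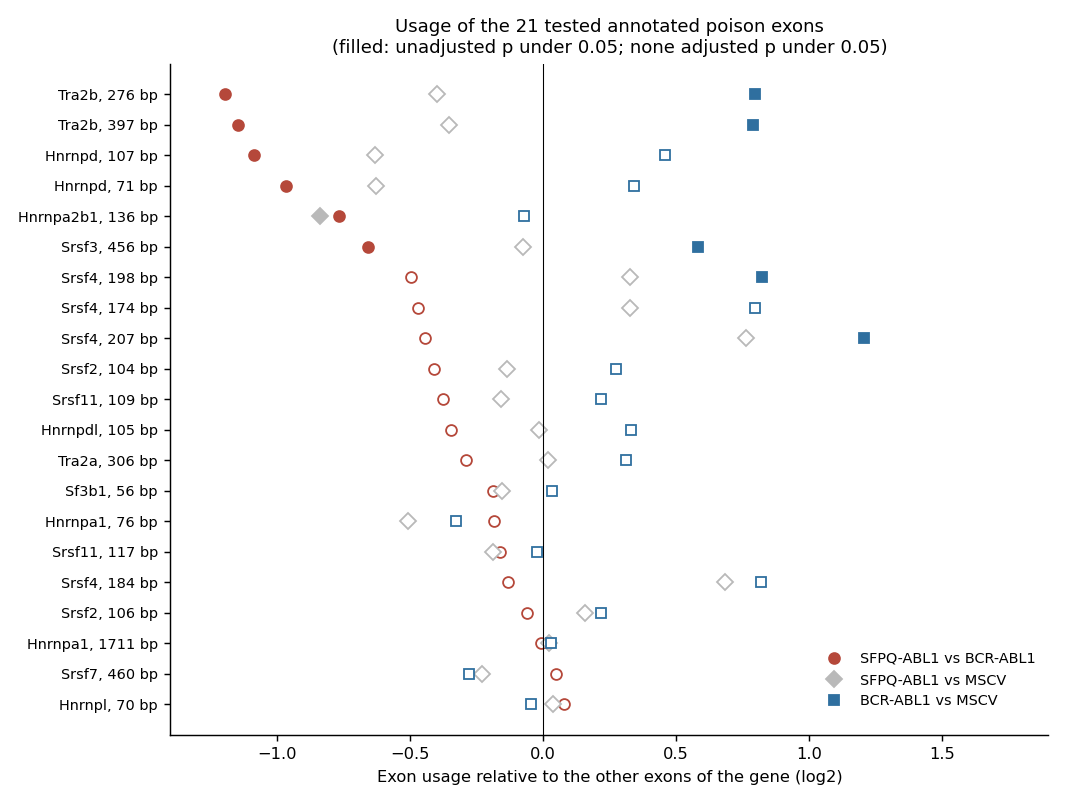
Usage of the 21 tested poison exons relative to the other exons of their gene (x axis, log2), 1 row per exon with its gene and length. Circles are SFPQ-ABL1 against BCR-ABL1, diamonds SFPQ-ABL1 against MSCV and squares BCR-ABL1 against MSCV, filled at an unadjusted p under 0.05. Tra2b lies at -1.19 and 0.80 in the first and the last.

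The poison exon of Tra2b, shown above, had the smallest p of the 21 in SFPQ-ABL1 against BCR-ABL1. It had 18, 19, 35 and 22 counts in SFPQ-ABL1 lines, against 71, 63, 58 and 55 in BCR-ABL1 lines, and 34, 11, 34 and 31 in MSCV lines. BCR-ABL1 lines were above every other line, while SFPQ-ABL1 and MSCV lines overlapped. Its share of the exon counts of Tra2b was 1.32 ± 0.494% with SFPQ-ABL1, 2.91 ± 0.367% with BCR-ABL1 and 1.69 ± 0.679% with MSCV (SD, n = 4 each). Usage was -1.19 on the log2 scale for SFPQ-ABL1 against BCR-ABL1 (edgeR, unadjusted p = 3.77e-05 and adjusted p = 0.13). The call was made in the fit of 8 libraries (adjusted p = 0.0389) and without MSCV line 2 (0.0443). It was not made in the other 11 of the 12 fits without 1 line. Usage was -0.97 without SFPQ-ABL1 line 1, and the edgeR adjusted p was 0.654 without BCR-ABL1 line 3. Without both SFPQ-ABL1 line 2 and BCR-ABL1 line 4 it was 0.987, and limma gave 0.1. Usage was 0.80 for BCR-ABL1 against MSCV (adjusted p = 0.809) and -0.40 for SFPQ-ABL1 against MSCV (adjusted p = 1). A longer annotated form of 397 bases holds these reads and a few more (259 against 247 counts in BCR-ABL1 lines). Its usage was -1.15, 0.79 and -0.35 in the same order. The mean gene level of Tra2b was 165 ± 27.2 CPM with SFPQ-ABL1, 187 ± 14.2 with BCR-ABL1 and 148 ± 19.8 with MSCV (SD, n = 4 each).

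Its paralog Tra2a carried the highest share of exon counts among the 4 poison exons shown, 4.27 ± 1.17% with SFPQ-ABL1, 5.17 ± 0.223% with BCR-ABL1 and 4.18 ± 0.758% with MSCV (SD, n = 4 each). The groups overlapped, and usage was -0.29, 0.31 and 0.02 on the log2 scale for SFPQ-ABL1 against BCR-ABL1, BCR-ABL1 against MSCV and SFPQ-ABL1 against MSCV (adjusted p = 1 each, edgeR). As a share of gene counts the order differed. With BCR-ABL1 the means were 0.708% for Srsf4, 0.701% for Srsf3, 0.647% for Tra2a and 0.476% for Tra2b. With SFPQ-ABL1 Srsf4 also led (0.524%, Tra2a 0.503%), while with MSCV Tra2a led at 0.549%. None of these shares is a rate of exon inclusion. Srsf3, which encodes the smallest SR protein, had 82, 115, 121 and 72 counts on its poison exon in SFPQ-ABL1 lines, against 105, 143, 111 and 146 in BCR-ABL1 lines. MSCV lines had 75, 69, 108 and 106, and all 3 groups overlapped. Usage was -0.66 for SFPQ-ABL1 against BCR-ABL1 (unadjusted p = 0.00724) and 0.58 for BCR-ABL1 against MSCV (unadjusted p = 0.0177), with an adjusted p of 1 in both. Srsf4 had few counts, with 9 to 21 in SFPQ-ABL1 lines, 6 to 36 in BCR-ABL1 lines and 6 to 12 in MSCV lines on the exon shown. Usage was 1.21 for BCR-ABL1 against MSCV (adjusted p = 0.615), and BCR-ABL1 line 2 alone held 36 of the 76 counts of its group.

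Other exons with a low unadjusted p hold no premature stop themselves. In Hnrnpd, which binds AU-rich elements, the 107-base exon had a usage of -1.09 for SFPQ-ABL1 against BCR-ABL1 (unadjusted p = 0.00333). In Hnrnpa2b1 the 136-base exon, which overlaps an exon of protein-coding transcripts, took 0.451 ± 0.0758% of the exon counts with SFPQ-ABL1, 0.767 ± 0.172% with BCR-ABL1 and 0.842 ± 0.179% with MSCV (SD, n = 4 each). Its usage was -0.77 against BCR-ABL1 (unadjusted p = 0.00776) and -0.84 against MSCV (unadjusted p = 0.00324), with an adjusted p of 1 in both. Poison exons of Hnrnpl, Hnrnpa1, Srsf7 and Srsf11 had an unadjusted p above 0.05 in all 3 comparisons. Those of Srsf7 and Srsf11 also hold a stop and had more counts than the exon of Srsf4. The Srsf7 exon took 3.08 ± 1.11% of the exon counts with SFPQ-ABL1, 2.87 ± 0.609% with BCR-ABL1 and 3.38 ± 0.444% with MSCV (SD, n = 4 each). Its usage was 0.05 for SFPQ-ABL1 against BCR-ABL1 and -0.28 for BCR-ABL1 against MSCV, opposite in sign to Tra2b in both (edgeR adjusted p = 1 each). The 2 exons of Srsf11 took means of 0.926 and 0.856% with SFPQ-ABL1, 1.03 and 1.07% with BCR-ABL1 and 1.04 and 0.943% with MSCV.

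**Figure D5:**
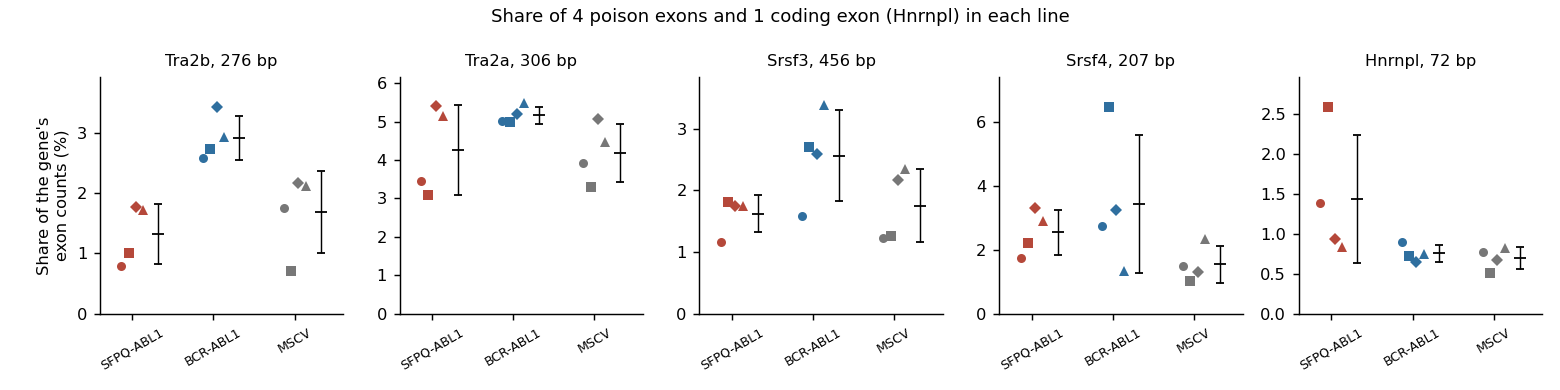
Share (%) of the exon counts of the gene that fell on the poison exons of Tra2b, Tra2a, Srsf3 and Srsf4 and on the coding exon of Hnrnpl, for each line (symbols as in the plot of levels), with the mean and SD of 4 lines in black. The BCR-ABL1 lines of Tra2b average 2.91%, above all other lines, and SFPQ-ABL1 line 2 stands apart for Hnrnpl.

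Genes that act on or beside these factors were read from 4 lists. Of all genes 26%, 1.79% and 32.1% were called in the 3 comparisons, as above. Among 11 measured kinases and phosphatases of SR proteins, 0 rose and 1 fell in SFPQ-ABL1 against BCR-ABL1, 0 changed in SFPQ-ABL1 against MSCV (1 at an unadjusted p under 0.05, edgeR) and 2 rose and 1 fell in BCR-ABL1 against MSCV. Srpk1, the main cytoplasmic SR protein kinase, had 223, 218, 245 and 214 CPM in SFPQ-ABL1 lines, against 341, 417, 418 and 495 in BCR-ABL1 lines. MSCV lines had 219, 213, 265 and 226. Every BCR-ABL1 line was above every other line. Srpk1 was 1.85-fold lower with SFPQ-ABL1 than with BCR-ABL1 (-0.89 ± 0.11 SE on the log2 scale, edgeR adjusted p = 0.000246) and 1.81-fold higher with BCR-ABL1 than with MSCV (0.85 ± 0.11 SE, adjusted p = 0.000156). None of the 44 members had a fold change of that size in either comparison. Srpk2 was 1.25-fold higher with BCR-ABL1 than with MSCV (edgeR adjusted p = 0.0236), and the phosphatase subunit gene Ppp1ca 1.3-fold lower (0.0408). The fall of Ppp1ca was lost in 7 of the 12 fits without 1 line, namely any BCR-ABL1 line, SFPQ-ABL1 line 3, MSCV line 1 or MSCV line 2, and 1 gene rose without BCR-ABL1 line 2. For SFPQ-ABL1 against BCR-ABL1 2 fell without BCR-ABL1 line 1, MSCV line 1 or MSCV line 2, and 1 rose without MSCV line 2. Clk1, a nuclear SR protein kinase, did not pass in any comparison (edgeR adjusted p = 0.477, 0.394 and 0.657 in the same order).

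Of 16 factors of NMD and the exon junction complex, 0 rose and 5 fell with SFPQ-ABL1 against BCR-ABL1 (31.2%), 0 changed against MSCV (1 at an unadjusted p under 0.05, edgeR), and 5 rose and 1 fell with BCR-ABL1 against MSCV (37.5%). Smg1, the kinase that phosphorylates UPF1, averaged 148 ± 13.3 CPM with SFPQ-ABL1, 200.4 ± 39.3 with BCR-ABL1 and 131 ± 17.3 with MSCV (SD, n = 4 each). Smg5, which helps to dephosphorylate UPF1, averaged 87.0 ± 17.3, 124 ± 9.31 and 80.2 ± 12.3 CPM in those groups. Both rose 1.54-fold with BCR-ABL1 against MSCV (edgeR adjusted p = 0.0049 and 0.00499), without overlap. Rnps1 and Magohb rose 1.34- and 1.46-fold, while the endonuclease gene Smg6 was 1.37-fold lower. The genes called in SFPQ-ABL1 against BCR-ABL1 included Rnps1, Smg5, Magohb and Smg1, with log2 fold changes from -0.51 to -0.35 among these 4, of which the lines of Smg1 alone overlapped. That count rested on single lines. It was 1 without SFPQ-ABL1 line 3, 2 without BCR-ABL1 line 2, BCR-ABL1 line 4 or SFPQ-ABL1 line 4, and 3 without BCR-ABL1 line 3 or SFPQ-ABL1 line 1, while 5 higher and 1 lower held in BCR-ABL1 against MSCV in all 12 fits. The call of Smg1 was lost in 6 of these fits (edgeR adjusted p up to 0.11, without BCR-ABL1 line 4) and that of Smg5 in 4 (up to 0.0639, without SFPQ-ABL1 line 3). The median over the list was -0.04 in SFPQ-ABL1 against BCR-ABL1 and 0.13 in BCR-ABL1 against MSCV, beside 0.01 and -0.01 over all genes.

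Core snRNP proteins gave 2 of 24 genes higher in SFPQ-ABL1 against BCR-ABL1 (Snrnp200 1.18-fold and Prpf6 1.16-fold), 0 against MSCV (2 at an unadjusted p under 0.05, edgeR), and 1 higher and 1 lower in BCR-ABL1 against MSCV (Snrnp48 1.2-fold higher, Snrpg 1.38-fold lower). The rises were not stable. Against BCR-ABL1, 2 genes rose with SFPQ-ABL1 in 2 of the 12 fits without 1 line, 1 in 5 (without BCR-ABL1 line 4, SFPQ-ABL1 lines 1 or 4, or MSCV lines 3 or 4) and 0 in 5 (without BCR-ABL1 lines 1, 2 or 3, or SFPQ-ABL1 lines 2 or 3). In BCR-ABL1 against MSCV 3 rose without MSCV line 2 and 0 in 7 fits (without BCR-ABL1 lines 2, 3 or 4, SFPQ-ABL1 lines 1, 3 or 4, or MSCV line 1). Of 39 other splicing regulators, 2 rose and 6 fell in SFPQ-ABL1 against BCR-ABL1, 2 rose in SFPQ-ABL1 against MSCV, and 9 rose in BCR-ABL1 against MSCV. Taf15, an RNA-binding protein of the FET family, averaged 313 ± 21.5 CPM with SFPQ-ABL1, 505 ± 44.5 with BCR-ABL1 and 338 ± 27.3 with MSCV (SD, n = 4 each). It was 1.61-fold lower with SFPQ-ABL1 than with BCR-ABL1 (edgeR adjusted p = 0.00032). Mbnl3, a muscleblind-family splicing regulator, rose 1.44-fold with SFPQ-ABL1 against MSCV (edgeR adjusted p = 0.0356). Of the rises in SFPQ-ABL1 against MSCV, 0 were left, Mbnl3 included, without SFPQ-ABL1 lines 1, 3 or 4 or MSCV lines 2 or 3, and 1 without BCR-ABL1 line 3 or MSCV lines 1 or 4. Against BCR-ABL1, 4 rose with SFPQ-ABL1 without BCR-ABL1 line 4, and in BCR-ABL1 against MSCV 1 fell without BCR-ABL1 line 2 or MSCV line 1. Over the 12 fits without 1 line, 4 to 8 of these regulators fell in SFPQ-ABL1 against BCR-ABL1 and 8 to 10 rose in BCR-ABL1 against MSCV. Sfpq itself, whose gene counts may hold reads of the fusion, averaged 359 ± 50.5 CPM with SFPQ-ABL1, 277 ± 47.5 with BCR-ABL1 and 278 ± 31.6 with MSCV (SD, n = 4 each), and was not called against either (edgeR adjusted p = 0.0625 and 0.174).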

How the data were processed

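RNA sequencing libraries of 12 Ba/F3 lines were analysed. Whole-number counts per gene and per exon, not normalized, are what the authors deposited. Subread, featureCounts and mm10 are named in the submitters' processing notes. No source used here gives tool versions, strand use or the treatment of multiply matching reads. Without molecular identifiers, PCR copies are counted as reads. Symbols, transcript types and sequences came from GENCODE release M21.

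Analysis used R 4.3.3, edgeR 4.0.16, limma 3.58.1 and DESeq2 1.42.0. Genes passing filterByExpr (17197) were scaled by TMM and fitted on the 12 libraries together, with group alone in the model (glmQLFit and glmQLFTest, two-sided). Calls were made where the p-value, adjusted by Benjamini-Hochberg over all genes, was under 0.05. Levels are TMM-scaled CPM. For exon usage, diffSpliceDGE was run on the 115471 exons that passed the filter. Both tests were first run on simulated data. Alternatives covered normalization, filters, tools, a 1.2-fold threshold, the libraries fitted and leaving out each library. Replicates of 1 group never agreed within sampling noise (chi-square 33.1 to 182 per degree of freedom, 18 pairs).

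The members and lists were chosen with earlier results of these data known. Named members were those called without overlap between lines, the 2 highest per length in each family, those under the count filter and exons called, and, of other lists, at most 4 genes a comparison with the smallest adjusted p. Clk1, Sfpq, Magohb, Smg6, the genes of poison exons and other members without a call were named after their values were seen. Some genes of these lists that the rule would name are not reported here.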

Additional observations from a re-analysis of the deposited data

Results flagged for a closer look

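Sets of 4 lines were formed per group for each tested member, each tested poison exon and the coding exon of Hnrnpl. Of these 198 sets, 14 held a line far from the other 3 (Dixon's gap over range, past its 95% critical value), a mark that chance alone gives about 1 in 20 sets. MSCV line 2 was the line in 5 of them. It had 1630 CPM of Hnrnpa2b1 against 1150 to 1200 in the other MSCV lines, 394 of Hnrnpc against 451 to 459, 511 of Hnrnpk against 413 to 426 and 184 of Sf3b6 against 137 to 142. Its share on the poison exon of Sf3b1 was 0.425% of exon counts against 0.854 to 0.896%. MSCV line 1 had 400 CPM of Srsf6 against 315 to 324, and 138 of Tra2a against 150 to 152.

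SFPQ-ABL1 line 1 had 380 CPM of Srsf2 against 280 to 291 in the other SFPQ-ABL1 lines. Its share on poison exons was 1.17% against 1.75 to 1.82% for Srsf3 and 2.33% against 3 to 3.08% for Hnrnpdl. SFPQ-ABL1 line 2 had 0.538% against 1.03 to 1.08% on an exon of Srsf11, and SFPQ-ABL1 line 4 had 0.805% against 1.24 to 1.28% on an exon of Hnrnpa1. BCR-ABL1 line 2 had 1.41% against 0.81 to 0.827% on an exon of Hnrnpd and 1.69% against 1.08 to 1.17% on an exon of Srsf2.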

How the results depend on the processing

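Shares of all genes called were taken only in the fit reported above, so the counts in this part have none beside them. Members higher and lower in BCR-ABL1 against MSCV were 5 and 1 with RLE factors and 1 and 1 without a count filter. Against a 1.2-fold change they were 0 and 0. DESeq2 called 9, of which 6 were higher, and the fit of 8 libraries called 5, of which 1 was lower. Without BCR-ABL1 line 4 and SFPQ-ABL1 line 2 (chosen after seeing the data) 3 were called, of which 1 was lower. In SFPQ-ABL1 against MSCV 2 were higher with DESeq2, 0 with 8 libraries and 0 against a 1.2-fold change. In SFPQ-ABL1 against BCR-ABL1 members higher and lower were 11 and 0 without normalization factors and 2 and 0 against a 1.2-fold change. They were 4 and 0 without those lines. Of 6 called without a filter and 9 called with 8 libraries, 0 were lower. Leaving out 1 library gave 1 to 6 higher and 1 to 2 lower in BCR-ABL1 against MSCV, 0 to 1 higher in SFPQ-ABL1 against MSCV, and 5 to 11 higher and 0 to 1 lower in SFPQ-ABL1 against BCR-ABL1. Member exons called in SFPQ-ABL1 against MSCV were 0 with limma, with at least 50 counts, with 8 libraries and without those lines, and 0 to 1 without 1 library. In SFPQ-ABL1 against BCR-ABL1 they were 3 with 8 libraries (2 of them poison exons), 2 without those lines (with 1 member called by Simes), and 0 to 3 without 1 library (0 to 2 of them poison exons). The F test called 4 members in BCR-ABL1 against MSCV and 1 in each other comparison.

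The 4 lists moved too under the 9 settings that leave out no single line. In SFPQ-ABL1 against BCR-ABL1, kinases and phosphatases gave 0 to 1 higher and 1 to 3 lower, NMD factors 0 to 1 and 0 to 6, core snRNP proteins 0 to 3 and 0 to 1, and other regulators 0 to 4 and 1 to 7. In BCR-ABL1 against MSCV these were 1 to 3 and 0 to 1, 3 to 5 and 0 to 1, 0 to 4 and 0 to 1, and 2 to 12 and 0 to 1. In SFPQ-ABL1 against MSCV other regulators gave 0 to 4 higher.

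Signs turned for values near 0. Srpk1 in SFPQ-ABL1 against MSCV was 0.0173 without normalization factors and -0.0869 to 0.036 without 1 library. Usage of the Tra2a exon in SFPQ-ABL1 against MSCV was -0.0867 with limma and -0.12 to 0.15 without 1 library. Without 1 library, usage of the Srsf3 exon was -0.22 to 0.0892 in SFPQ-ABL1 against MSCV, of the Srsf4 exon -0.67 to 0.0361 in SFPQ-ABL1 against BCR-ABL1, and of the Hnrnpl exon -0.0028 to 0.26 in BCR-ABL1 against MSCV. The causes were not tested.

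Correlations between lines of different groups were taken on log levels after the group mean of each gene was subtracted. They thus compare deviations within groups, not whole profiles. Same-numbered lines of different groups correlated at -0.00632 to 0.385 (12 pairs), others at -0.347 to 0.228 (36), and 7 of the 12 same-numbered pairs lay above 0.1. Since not every pair did, and the labels tie no number to a shared batch, the numbers were not taken to pair lines. Yet 9 of 12 lines correlated best with their own number, a hint of pairing from the data and not from the design. With the replicate number as a block, 10 members were higher and 1 lower in SFPQ-ABL1 against BCR-ABL1 (adding Hnrnpd, Sf3a3 and Srsf2), 6 were higher and 1 lower in BCR-ABL1 against MSCV (adding Hnrnpr, Srsf4 and Tra2b, at an adjusted p of 0.00701, and losing Sf3b2, at 0.0627) and 3 higher in SFPQ-ABL1 against MSCV (adding Hnrnpd and Hnrnpr). Member exons called were then 0 in SFPQ-ABL1 against MSCV (Hnrnpl at 0.117) and 1 in SFPQ-ABL1 against BCR-ABL1, a poison exon of Tra2b (adjusted p = 0.0464). With 4 lines a group and exon counts often under 50, small changes in poison exon use could not be resolved.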
